A study of Rattus norvegicus with 6 samples.

Results

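The genes described here were 6 homing chemokines and inflammatory mediators. These are the chemokines Cxcl12 (ENSRNOG00000013589), Ccl2 (ENSRNOG00000007159) and Cxcl1 (ENSRNOG00000002802), the cytokines Il6 (ENSRNOG00000010278) and Il1b (ENSRNOG00000004649), and Ptgs2 (ENSRNOG00000002525), the enzyme that starts prostaglandin synthesis. They were taken by name and Ensembl identifier, 6 of the 32883 identifiers in the deposited counts, and all 6 were present. The cells were rBMSCs, primary mesenchymal stem cells from the bone marrow of Lewis rats, grown for 4 days in medium with fetal bovine serum. The compared groups were 3D Nichoids, in which polymerized grids are stacked into niches that the cells enter (3 libraries), and 2D Nichoids, in which the grid lies on the glass as one layer (3 libraries). Both groups shared cells, medium and photoresist. The labels do not say whether replicates A, B and C came from separate cultures, so the p values do not extend beyond these libraries. They also draw on the spread of the other genes tested, and not on the replicates of each gene alone. The labelled cell type could not be checked against marker genes, since neither the files nor the RefSeq gene table used here pair other identifiers with gene symbols.

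In the marrow, stromal cells use chemokines as position signals. Cxcl12 binds the receptor Cxcr4 on hematopoietic stem cells and keeps them in their niche, Ccl2 lets monocytes leave the marrow and draws them to inflamed tissue through Ccr2, and Cxcl1 draws neutrophils through Cxcr2. Il6 and the prostaglandins made downstream of Ptgs2 are secreted by mesenchymal stem cells and act on macrophages and lymphocytes. Il1b, made mostly by activated monocytes and macrophages, can induce Ccl2, Cxcl1, Il6 and Ptgs2 in stromal cells, largely through the transcription factor NF-kB. The question the comparison addresses is how expression differs between cells in 3D Nichoids and cells on a flat control of the same photoresist. The paper reports that cells on the flat control adhered to the glass beneath and were spread. It describes those in 3D Nichoids as more confined. The surface touched and the spreading of the cells thus differed along with their 3D arrangement, and the separate effect of each was not tested.

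The 6 genes did not move as one group. In 3D Nichoids Cxcl12 was 1.54 times and Cxcl1 1.22 times as high as in 2D Nichoids, while Ccl2 was 1.56 times, Il6 2.05 times and Ptgs2 2.15 times as high in 2D as in 3D Nichoids. Il1b was close to the detection limit in all libraries. Of the 5 genes with enough counts to be tested, all 5 passed the adjusted p cutoff of 0.05 in the quasi-likelihood test of edgeR, 2 higher and 3 lower in 3D Nichoids. That cutoff was passed by 37.8% of the 13523 genes tested, 18.9% higher and 18.8% lower (2560 and 2549 genes, or 1638 and 4161 when libraries were scaled by total counts only), and by 55.6% of those with a mean scaled count of at least 1000 (27.3% higher and 28.3% lower), a level that all 5 exceeded. Passing it therefore sets these genes little apart from other well counted genes. The size of the change varied more, since Il6 and Ptgs2 also met the log2(FC) cutoff of 1 that defines a DEG, which 3.42% of all tested genes and 1.03% of those with a mean of at least 1000 did. Decreased DEGs made up 1.37% of all tested genes and 0.464% of the well counted ones. The median absolute log2(FC) was 0.64 over the 5 genes and 0.21 over all genes tested, which were not matched to them for counts. As the members were chosen with earlier results of these data known, these contrasts with other genes are descriptions only.

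**Figure D1:**
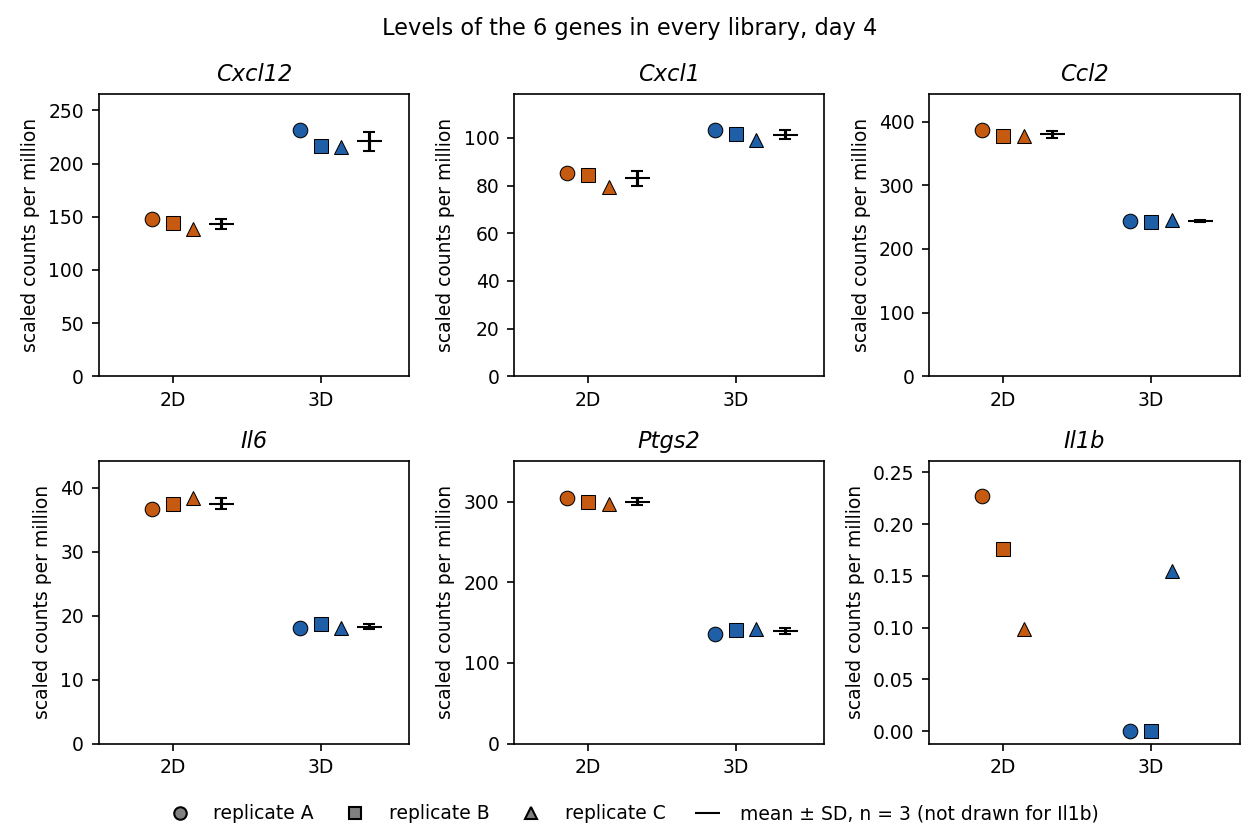
CPM, scaled counts per 1000000 reads (vertical axis, from 0, one panel per gene) of the 6 genes in the 2D and 3D Nichoid libraries at day 4, with 1 point per library, a symbol for each replicate, and the mean ± SD of 3 libraries beside them except for Il1b. The groups do not overlap in the first 5 panels, with Cxcl12 and Cxcl1 higher and Ccl2, Il6 and Ptgs2 lower in 3D Nichoids, and they overlap in the panel of Il1b, where no value exceeds 0.227.

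The start regions of Il6 and Ptgs2, which fell most, and of both genes that rose are shown to let their sequence be read beside the values. The 250 bases before the annotated start were taken from RefSeq (build GRCr8, which is not the build of the counts), in which 5 of the 6 genes had an entry, Ccl2 being the exception. Each is written 5′ to 3′ on the strand of the gene, and capitals mark every match, on either strand, to 1 of the 6 motifs searched.
Il6, chr4:5894576-5894825, minus strand: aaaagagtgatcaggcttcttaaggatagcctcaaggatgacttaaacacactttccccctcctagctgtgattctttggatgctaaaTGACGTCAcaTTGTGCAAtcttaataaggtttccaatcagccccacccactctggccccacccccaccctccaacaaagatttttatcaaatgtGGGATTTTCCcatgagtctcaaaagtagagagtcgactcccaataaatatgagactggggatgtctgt
Ptgs2, chr13:64713813-64714062, plus strand: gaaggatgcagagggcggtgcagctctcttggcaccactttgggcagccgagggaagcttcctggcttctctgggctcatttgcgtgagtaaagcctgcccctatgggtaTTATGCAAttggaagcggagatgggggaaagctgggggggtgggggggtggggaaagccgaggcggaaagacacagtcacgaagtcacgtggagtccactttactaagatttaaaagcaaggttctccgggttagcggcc
Cxcl1, chr14:17479322-17479571, minus strand: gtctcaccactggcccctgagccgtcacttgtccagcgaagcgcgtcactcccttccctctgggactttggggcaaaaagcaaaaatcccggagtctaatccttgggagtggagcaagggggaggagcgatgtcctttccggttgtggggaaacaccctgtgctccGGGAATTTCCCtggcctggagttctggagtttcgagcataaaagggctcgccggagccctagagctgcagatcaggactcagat
Cxcl12, chr4:152060531-152060780, plus strand: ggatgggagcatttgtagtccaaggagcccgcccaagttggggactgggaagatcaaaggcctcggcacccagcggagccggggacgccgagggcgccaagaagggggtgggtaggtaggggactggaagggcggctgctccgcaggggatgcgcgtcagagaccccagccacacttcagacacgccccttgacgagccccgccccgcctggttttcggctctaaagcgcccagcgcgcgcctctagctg

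The NF-kB consensus was matched in Il6, beginning 68 bases before the start, and in Cxcl1, where overlapping matches on the opposite strands begin 84 and 83 bases before it. It was found in 6.33% of the 33469 promoters of that length. Il6 fell and Cxcl1 rose, and Ccl2 had no entry to search. Whether the motif bears on either change was not tested. The C/EBP motif TTNNGNAA was matched in Il6 (152 bases before the start), Ptgs2 (140 bases before it) and Il1b (119 bases before it), and in 37.2% of all promoters, so its presence is common. The CRE motif TGACGTCA lies in Il6, 162 bases before the start, and in 1.59% of all promoters. Of the remaining motifs, AP-1 (TGANTCA, 6.34% of promoters) and the E-box read by SNAI2 (CAGGTG, 15.9%) had no match in these 5 windows, and TATAAA (12.9%) was matched in Il1b alone, 60 bases before its start. In the window of Cxcl12 none of the 6 motifs was found. A match is a stretch of letters and not a measured binding site, and these windows hold only the nearest part of each promoter.

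Cxcl12, the chemokine that retains hematopoietic stem cells in the marrow, rose in 3D Nichoids. Here and below, values stand in the order of replicates A, B and C. The 3D libraries held 9317, 8105 and 8356 reads on the gene and the 2D libraries 5862, 5707 and 5621. Scaled to counts per 1000000 reads (CPM) by the TMM factors of edgeR, which correct library totals for composition, the levels were 231, 216 and 216 against 148, 144 and 138. Every 3D Nichoid library lay above every 2D Nichoid library, and replicate A of the 3D Nichoids was the highest. The means were 221 ± 8.87 (SD, n = 3) and 143 ± 4.70 (SD, n = 3), and over the 9 pairs of a 3D with a 2D library the ratio ran from 1.46 to 1.67. The log2(FC) was 0.63 (SE 0.04, 95% interval 0.55 to 0.70, adjusted p value 1.50e-18, edgeR quasi-likelihood test), higher than in 92.2% of the genes tested. Ranks of this kind, here and below, are among all genes tested, which were not matched to the members for counts. The spread of replicates, 4.01% of the mean in 3D and 3.28% in 2D Nichoids, was wider than the 1.08% and 1.32% that counting of independent reads would give, and it was the widest of the 5 tested genes in 3D Nichoids.

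Cxcl1, the neutrophil chemokine, had the smallest change of the 5. The 3D libraries held 4157, 3811 and 3846 reads and the 2D libraries 3377, 3351 and 3228, or 103, 102 and 99.2 against 85.1, 84.4 and 79.5 CPM. The groups were separate but close, and the lowest 3D library exceeded the highest 2D library by a ratio of 1.17. The log2(FC) was 0.29 (SE 0.05, 95% interval 0.20 to 0.38, adjusted p value 1.57e-06, edgeR quasi-likelihood test), and 19.9% of all tested genes had a higher one. Being the smallest, it was also moved most in proportion by the scaling. With library totals alone, which lowered the median log2(FC) of all genes by 0.10, it was 0.19 (adjusted p value 0.000844, edgeR), still higher in 3D Nichoids.

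Ccl2, the monocyte chemokine, fell in 3D Nichoids while Cxcl12 and Cxcl1 rose. It had 9821, 9072 and 9527 reads in the 3D libraries, against 15320, 14958 and 15302 in the 2D libraries. In CPM they were 244, 242 and 246 against 386, 377 and 377. Replicates lay very close, with an SD of 0.751% of the mean in 3D and 1.42% in 2D Nichoids, against counting errors of 1.03% and 0.811%. Each 2D library was 1.53 to 1.59 times as high as each 3D library. The log2(FC) was -0.64 (SE 0.03, 95% interval -0.69 to -0.59, adjusted p value 3.11e-23, edgeR quasi-likelihood test), lower than in 94.7% of all tested genes. This log2(FC), with its whole 95% interval, lies inside the cutoff of 1, so that Ccl2, like both other chemokines, was no DEG.

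Il6, the pleiotropic cytokine that signals through gp130, fell, with 2.05 scaled reads in 2D for each 1 in 3D Nichoids. The 3D libraries held 727, 702 and 700 reads, the 2D libraries 1457, 1488 and 1561. As CPM they were 18.0, 18.7 and 18.1 against 36.7, 37.5 and 38.4, and the gap between the groups was far wider than either group. The means were 18.3 ± 0.394 (SD, n = 3) and 37.5 ± 0.856 (SD, n = 3). The replicate spread, 2.16% and 2.28% of the mean, was below the counting errors of 3.75% and 2.58% that these smaller counts carry. The log2(FC) was -1.04 (SE 0.08, 95% interval -1.20 to -0.88, adjusted p value 2.11e-14, edgeR quasi-likelihood test), so that the interval spans the cutoff of 1. Tested against a log2(FC) of 1, Il6 did not pass (unadjusted p value 0.131 and adjusted p value 1 with glmTreat of edgeR).

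Ptgs2, known as COX-2, converts arachidonic acid to the precursor of the prostaglandins, prostaglandin E2 among them. It had the largest change of the 5, with 5469, 5271 and 5502 reads in the 3D libraries against 12084, 11868 and 12043 in the 2D libraries. The levels in CPM were 136, 141 and 142 against 305, 299 and 296. No library came near the other group, and over the 9 pairs the 2D library was 2.09 to 2.24 times as high as the 3D library. The log2(FC) was -1.11 (SE 0.03, 95% interval -1.17 to -1.04, adjusted p value 4.22e-29, edgeR quasi-likelihood test), lower than in 98.2% of all tested genes. In the same test against 1, Ptgs2 passed (adjusted p value 0.0237, glmTreat of edgeR), and it was the 1 gene of the 5 that did.

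Il1b, the cytokine made mostly by activated monocytes and macrophages, had 0, 0 and 6 reads in the 3D libraries and 9, 7 and 4 in the 2D libraries. The groups overlapped, since the 6 counts of 3D replicate C lie between the 2D values. It did not pass the filter on low counts and has no value in the fit. The 6 counts in 120777078 reads of the 3D Nichoids correspond to 0.0497 counts per 1000000 reads of the unscaled library totals (95% exact Poisson interval 0.0182 to 0.108), and the 20 counts in 115846030 reads of the 2D Nichoids to 0.173 (0.105 to 0.267). These intervals cover counting error only, as reads copied from one molecule are not independent. In the libraries without a count, the limit that 3 counts would give is, on the same unscaled totals, 0.0717 counts per 1000000 reads in replicate A and 0.0774 in replicate B. Without the filter Il1b had an adjusted p value of 0.548 in edgeR, and in DESeq2 it was 0.432, so neither fit detected a difference.

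**Figure D2:**
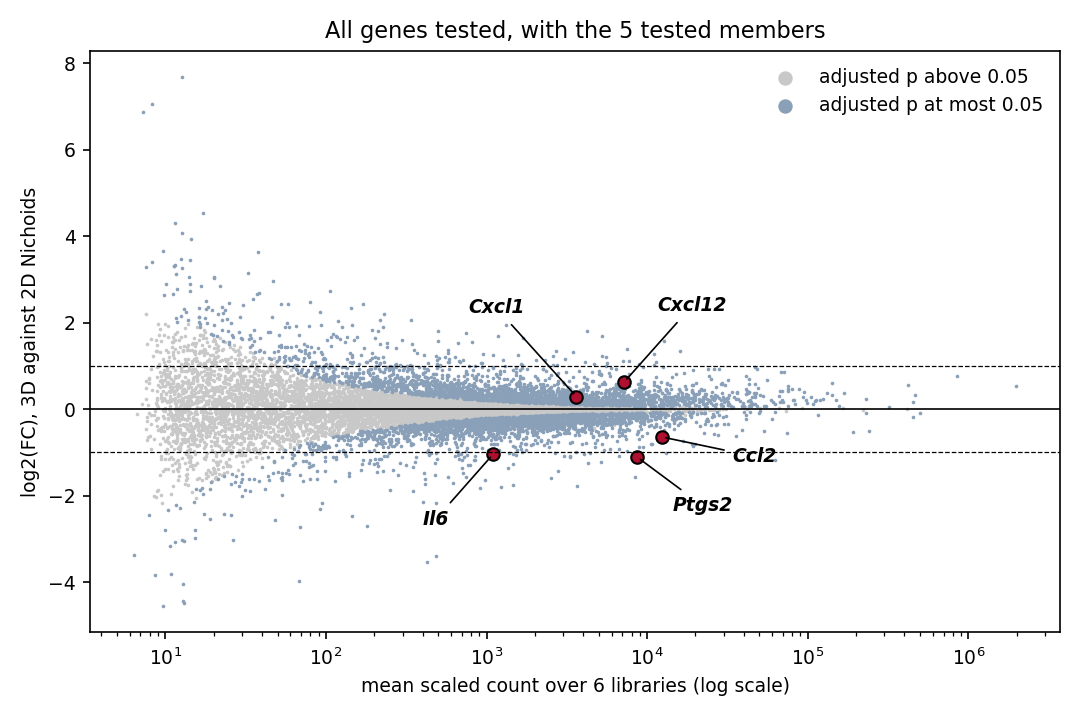
log2(FC) of 3D against 2D Nichoids (vertical axis) for all 13523 genes tested by the mean scaled count over the 6 libraries (horizontal axis, log scale), grey or blue by the adjusted p value, with dashed lines at the cutoff of 1. The 5 tested members (red) lie among well counted genes, and Il6 (-1.04) and Ptgs2 (-1.11) sit just beyond the lower line while Cxcl12 (0.63), Cxcl1 (0.29) and Ccl2 (-0.64) lie between the lines.

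Groups did not overlap in any of the 5 tested genes, as in 46.9% of all tested genes and 62.4% of those with a mean scaled count of at least 1000. For each of the 5 the two-sided exact permutation test over the 6 libraries gave p = 0.1, the lowest value that a 3 against 3 design can give, and for Il1b p = 0.2. In bulk RNA, fewer cells that express a gene and less RNA per cell cannot be told apart. Total counts per library ran from 38747857 to 41860684 in 3D and from 38353363 to 39112286 in 2D Nichoids, and together the 6 genes took 0.0695% to 0.0705% of them in 3D and 0.0965% to 0.0993% in 2D Nichoids. Replicate C of the 2D Nichoids stood apart on the second principal component of all tested genes (36.0, against -22.9 and -22.2 in replicates A and B). Without it the log2(FC) was 0.60 for Cxcl12, 0.26 for Cxcl1, -0.64 for Ccl2, -1.02 for Il6 and -1.11 for Ptgs2, and all 5 kept their side of the adjusted p cutoff of edgeR.

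**Figure D3:**
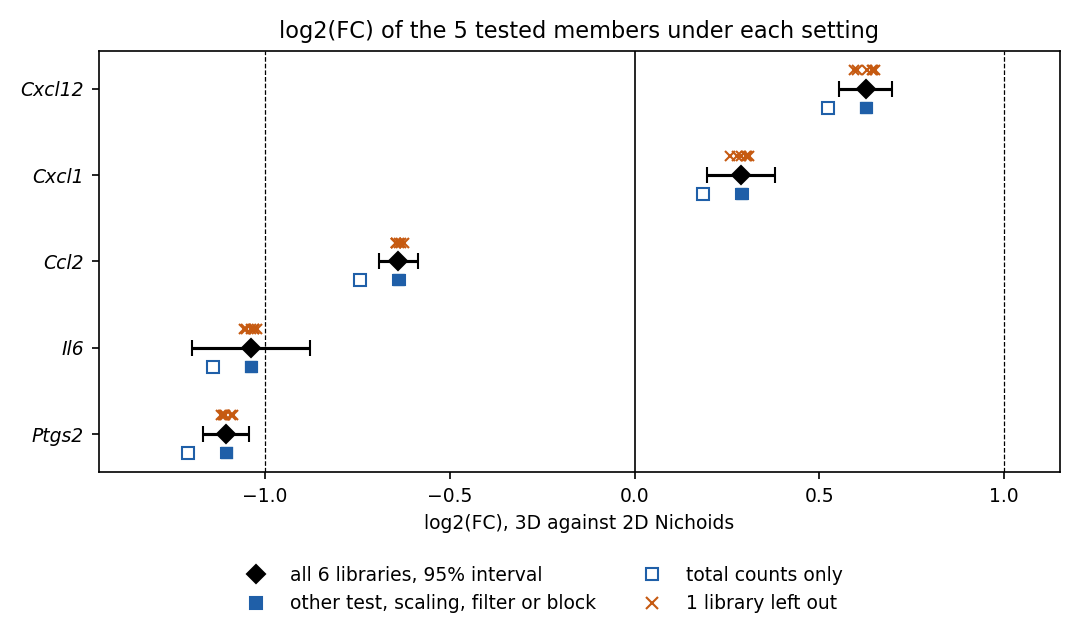
log2(FC) of 3D against 2D Nichoids (horizontal axis) of the 5 tested members with its 95% interval (black), under the other tests, scalings, filters and the replicate block (blue, open for total counts only) and with 1 library left out (orange). All points of a gene keep one sign, and those of Il6 and Ptgs2 stay below the dashed line at -1, while the interval of Il6 (-1.20 to -0.88) crosses it.

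Ratios between members inside one library need no scaling, since the library total cancels. Their size depends on the length of the genes and is not read here, only their change between groups. Of the 10 pairs of tested members, the ratio differed without overlap between the groups in 9 (exact permutation p = 0.1 each, adjusted p = 0.111 over the 10 pairs, which this design cannot bring lower). Of all 16904205 pairs of genes with a mean scaled count of at least 1000, the ratio did so in 63.3%, and as the 10 pairs share 5 genes, the count of 9 is a description and not a result about the members. The ratio of Cxcl12 to Ccl2 was 0.949, 0.893 and 0.877 in the 3D libraries and 0.383, 0.382 and 0.367 in the 2D libraries, a change of 2.40 times. Since these chemokines moved in opposite directions, this change follows from the changes already given. The ratio of Cxcl12 to Ptgs2 moved most, by 3.32 times, from 0.478 ± 0.00961 (SD, n = 3) in 2D to 1.59 ± 0.102 (SD, n = 3) in 3D Nichoids. As a description of these libraries, the changes were unequal even within a direction. Cxcl12 gained on Cxcl1 by 1.26 times, and Ccl2, which fell less, gained on Il6 by 1.32 times and on Ptgs2 by 1.38 times.

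Il6 and Ptgs2 were the pair whose ratio overlapped. It was 0.133, 0.133 and 0.127 in the 3D libraries and 0.121, 0.125 and 0.130 in the 2D libraries, a log2 change of 0.07 (exact permutation test, p = 0.2). With 3 libraries a group this test cannot give a p value below 0.1. It therefore cannot decide whether these genes fell equally. Likeness of pattern was measured as the root mean square difference of log2 scaled counts, each gene centred on its own mean over the 6 libraries, across 11610 other genes with a mean scaled count of at least 50. Between Il6 and Ptgs2 it was 0.05, and 4 genes lay nearer to each of them than they lay to each other. For the other members the nearest fellow member was far less alike. Cxcl12 and Cxcl1 were 0.17 apart, with 888 genes nearer to Cxcl12 and 4172 nearer to Cxcl1, and Ccl2 was 0.20 from Il6, with 1419 genes nearer. The median difference from all compared genes was 0.53 for Il6, 0.56 for Ptgs2, 0.34 for Cxcl12 and for Ccl2, and 0.21 for Cxcl1. These are descriptions over 6 libraries in 2 groups, so the measure largely follows the log2(FC). The number of nearer genes also depends on how common a change of that size is. Among all tested genes, not matched for counts, 2.09% had a lower log2(FC) than Il6 and 1.81% a lower one than Ptgs2. The likeness therefore adds little to the changes already given. The nearest genes are not named, as no symbols are paired with their identifiers.

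**Figure D4:**
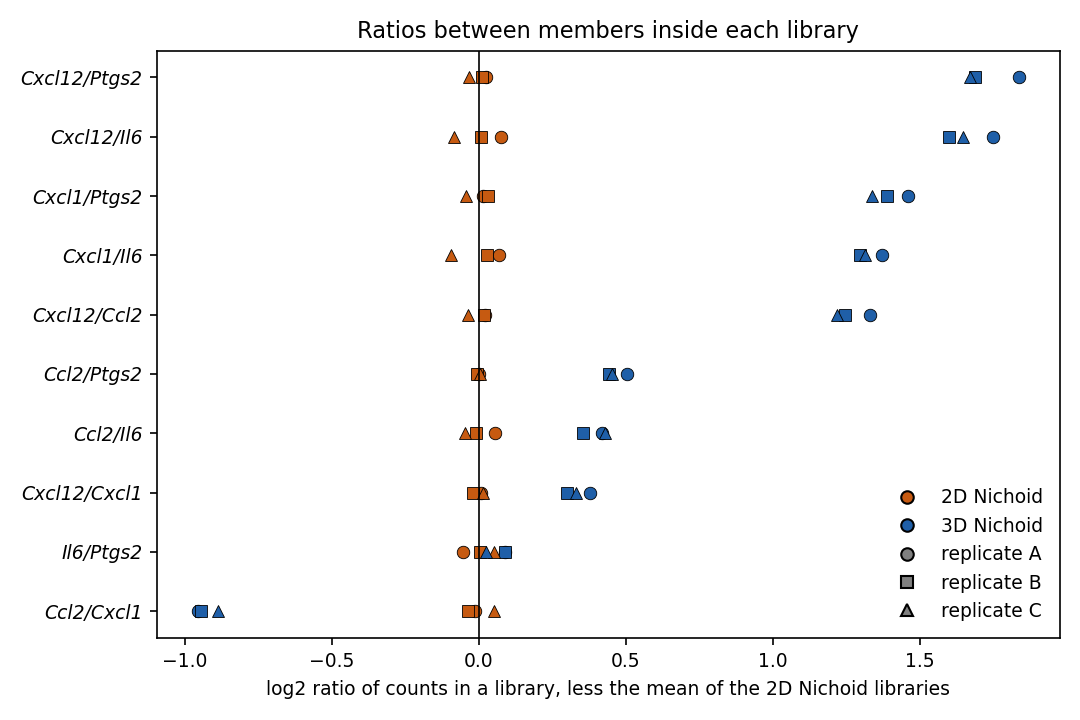
Log2 ratio of the counts of 2 members inside each library (horizontal axis), set to 0 at the mean of the 2D Nichoid libraries, for the 10 pairs of tested members (rows), with colours for the groups and symbols for the replicates. The 3D Nichoid libraries lie apart from the 2D Nichoid libraries in 9 rows, furthest for Cxcl12/Ptgs2, and overlap with them in the row of Il6/Ptgs2.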

How the data were processed

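RNA of rBMSCs from 3D Nichoids (3 libraries) and 2D Nichoids (3 libraries) was sequenced at day 4 as single-end reads. The deposited files hold raw read counts for each Ensembl gene, which the authors obtained with STAR 2.7.0a and HTSeq. The submitters' processing notes name Rnor_6.0 and HTSeq 0.12.4, while the paper's methods name a later build and HTSeq release. No strand setting and no removal of PCR copies is stated, so how far overlapping, antisense or near-identical genes were kept apart is not known.

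Counts were filtered with filterByExpr, scaled by TMM and tested across all genes with the quasi-likelihood test of edgeR 4.0.16 (robust, no covariates, Benjamini-Hochberg adjustment) in R 4.3.3. The SE was the log2(FC) divided by the square root of F. DESeq2 1.42.0, other scalings and filters, the replicate letter as a block and each library left out were alternatives. The procedure was tested on simulated data. Figures were drawn in Python 3.11.15 with matplotlib 3.10.9.

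The members, lists and cutoffs were chosen with earlier results of these data known, and all 6 members were to be named. Symbols of the members come with their identifiers in the choice of genes. The RefSeq gene table used here holds 0 Ensembl identifiers, so the fixed lists of other chemokines, receptors, interleukin, prostanoid, NF-kB and cell type marker genes were not analysed here.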

Additional observations from a re-analysis of the deposited data

How the results depend on the processing

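The direction and the side of the adjusted p cutoff of all 5 tested genes held under DESeq2, RLE factors, total counts only, no filter, the filter of 10 counts in all libraries, the replicate block and each of the 6 fits without 1 library. With each library left out the log2(FC) ran from 0.59 to 0.65 for Cxcl12, 0.26 to 0.31 for Cxcl1, -0.64 to -0.62 for Ccl2, -1.06 to -1.02 for Il6 and -1.12 to -1.09 for Ptgs2. Under the other settings it ran from 0.52 to 0.63, 0.19 to 0.29, -0.74 to -0.64, -1.14 to -1.03 and -1.21 to -1.10 in that order, with total counts only at the lower end in each. Il6 and Ptgs2 stayed the 2 DEGs under all these settings, but when the log2(FC) was tested against 1, 1 DEG was left (Ptgs2).

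In the fit with a replicate block (letters A, B and C), 5132 genes passed the adjusted p cutoff, against 5109 without it, and all 5 calls were kept. Libraries of one letter did not deviate together (correlations of 0.03, -0.01 and 0.02 for A, B and C), so the letters were not taken as pairs. Il1b gave a value only under DESeq2 and without the filter. The alternatives for the lists of other genes were not run, because identifiers could not be paired with symbols. At 0 to 9 counts in a library, a difference in Il1b was not detected by either fit.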
